A study of Homo sapiens with 2 samples.

Results

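FGF9, 4 further fibroblast growth factor ligands (FGF2, FGF18, FGF19 and FGF20), the ligand carrier FGFBP1 and the 4 receptor tyrosine kinases FGFR1, FGFR2, FGFR3 and FGFR4 were examined in SW480 cells with and without introduced TFAP2E. They are 10 of the 18417 genes that have a probe set with exactly 1 gene symbol in the array's annotation, and each was read by 1 such probe set. FGF9 was chosen because of its difference in this same comparison, and the others because they belong to its signalling family, so that their differences are given as a description. SW480 is an established human colorectal adenocarcinoma line. Of its 2 arrays, 1 carries RNA of cells stably transfected with the pTarget expression plasmid holding the coding sequence (CDS) of TFAP2E, the gene of the transcription factor AP-2 epsilon, and 1 carries RNA of cells with the empty vector control. Both lines went through Geneticin selection, and single clones were picked for RNA. The labels do not say how many clones an array stands for, so that a difference between the constructs and a difference between clones cannot be told apart.

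Fibroblast growth factors are secreted proteins that bring receptor chains together on the cell surface, with heparan sulfate as a cofactor. The activated receptor phosphorylates the docking protein FRS2, which recruits GRB2 and SOS and so feeds the RAS and MAP kinase cascade. Sprouty proteins, DUSP6 and ETS factors such as ETV4 and ETV5 are induced by that cascade, and the first of these restrain it. In the intestine FGF19 is the hormone that the ileum sends to the liver to hold back bile acid synthesis, FGF9 is a signal from epithelium to mesenchyme during gut growth, and FGF18 and FGF20 are reported targets of Wnt and beta-catenin signalling.

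Levels are log2 RMA values, a background-corrected and normalised summary of a probe set's brightness, and every difference is the TFAP2E array minus the empty vector array on the log2 scale. There is 1 array per group. No value therefore has an error or a test, and the number of arrays limits the precision. Levels of different probe sets are not a measure of which gene is more abundant, so levels are compared between the arrays for the same gene. A gene was counted when the higher of its values reached 5.55, which 11548 genes did; this value is the midpoint of the 33297 probe sets' readings on both arrays. Among these, 95% of the differences lay between -0.37 and 0.47, with a median of 0.04. The TFAP2E probe set itself read 6.81 against 6.77 and thus hardly differed; the stretch of mRNA that it covers is unknown here, and all directions rest on the labels. In contrast, DKK4, the Wnt antagonist that published work links to TFAP2E, read 7.96 against 10.4. Of 12 colorectal epithelial markers 8 passed the filter, among them EPCAM, KRT8, KRT18 and CDX2, whereas KRT20, CDH17, CEACAM5 and GPA33 lay below it. Of those 8, 7 read lower with TFAP2E (6 when centred on the array medians) and 1 higher. Among all 11548 genes 39.5% read lower. The median difference of those 8 markers was -0.15. CDH1 (E-cadherin) was lowest at -0.71 and ASCL2 next at -0.54, and CDX1 was highest at 0.06. The part of these differences in the results below was not tested. Of the markers of other cells, 3 of 10 for fibroblasts (ACTA2, COL1A1 and COL1A2), 0 of 6 for endothelium and 1 of the 5 measured for leukocytes (CD14) passed. COL1A2 (5.47 with TFAP2E against 5.56) and CD14 (5.46 against 5.66) passed only through the empty vector array. The defining markers PDGFRA, DCN, PECAM1 and PTPRC lay below the filter on both arrays. The mean level over all measured markers was 4.64 with TFAP2E and 4.65 with the empty vector for fibroblasts, 4.11 and 4.02 for endothelium, and 4.20 and 4.21 for leukocytes.

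FGF9 was the only one of the 10 genes that differed by at least 2-fold. It read 7.37 on the empty vector array and 6.31 on the TFAP2E array, above the filter on both. The difference was -1.06, which is 2.09-fold lower with TFAP2E, and 7 of the 11548 genes had a lower one. FGF9 was selected on this contrast, in which 0.113% of genes were lower by at least 2-fold and 0.0866% higher, so the count of 1 lower and 0 higher among the 8 FGF genes above the filter is descriptive. Among the 500 genes closest to FGF9 in mean level, 95% of the differences lay between -0.34 and 0.40. By distance between readings on the 2 arrays, the 3 nearest genes to FGF9 were CEMIP, a hyaluronan-binding protein (6.29 against 7.23, distance 0.136 on the log2 scale), PNPLA7, a lysophospholipase (6.52 against 7.35, distance 0.216), and DCDC2, a doublecortin-domain protein (6.49 against 7.23, distance 0.228). This distance uses the readings of FGF9 itself, so that the nearest genes are bound to read lower with TFAP2E too, and it depends on how bright each probe set is.

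**Figure D1:**
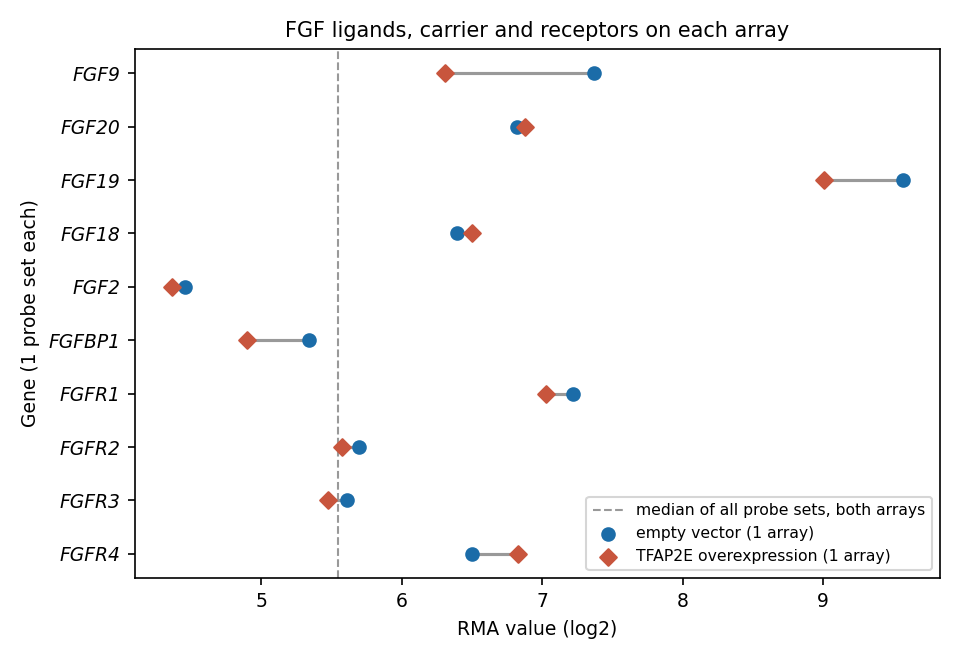
RMA values (log2, horizontal axis) of the 10 FGF genes, with a circle for the empty vector array and a diamond for the TFAP2E array, 1 array each; the dashed line is the filter at 5.55. FGF9 spans 7.37 to 6.31 and FGF19 spans 9.57 to 9.0, FGFR4 has its diamond to the right, and FGF2 and FGFBP1 lie left of the line on both arrays.

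FGF20, the closest relative of FGF9 on this list, lay near 0. FGF9, FGF16 and FGF20 form 1 subfamily of ligands with overlapping receptor preference. FGF20 read 6.82 on the empty vector array and 6.88 on the TFAP2E array, a difference of 0.06, close to the median of all genes. FGF16 lay below the filter on both arrays, at 3.54 and 3.38.

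FGF19, the endocrine ligand, had the next lowest difference of the 10 genes. Its probe set read 9.57 with the empty vector and 9.0 with TFAP2E, a difference of -0.57 or 1.48-fold. In the deposited values this was short of the 1.5-fold mark, as it was with centring (-0.54). Quantile normalization (-0.61) and removal of the loess trend (-0.62) took FGF19 past that mark. The deposited difference lay below the span of -0.35 to 0.41 that held 95% of the 500 genes nearest in level. Of all 11548 genes 77 were lower. FGF19 acts through FGFR4 together with the co-receptor beta-Klotho, which KLB encodes. FGFR4 differed in the other direction, at 6.50 against 6.83 with TFAP2E (0.33, 1.26-fold higher), the highest difference among the 10 genes. This value lay inside the span of genes of its level, -0.39 to 0.48. KLB lay below the filter, at 3.70 with the empty vector and 3.85 with TFAP2E.

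FGF18 and FGF2 differed little. FGF18, a ligand of the same branch as FGF8 and FGF17, read 6.39 with the empty vector and 6.50 with TFAP2E (0.10). FGF2, the basic fibroblast growth factor that lacks a signal peptide, lay below the filter on both arrays, at 4.46 and 4.36 (-0.10). Its gene overlaps NUDT6 on the opposite strand, which read 5.82 and 5.81 on the same arrays. FGFBP1, which releases FGFs from heparan sulfate and carries them to their receptors, lay below the filter too, at 5.34 with the empty vector and 4.90 with TFAP2E. Its difference of -0.45 was inside the span of -0.49 to 0.47 for 500 genes of similar level taken without a filter. Both of these dim genes are left out of the counts.

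Of the 4 receptors 3 read lower with TFAP2E, each by less than the spread of genes at its level. Among all genes above the filter 39.5% read lower. FGFR1, whose IIIc form is typical of mesenchymal cells, read 7.22 with the empty vector and 7.03 with TFAP2E (-0.20). FGFR2, whose IIIb form is typical of epithelium, read 5.70 and 5.58 (-0.12), just above the filter. FGFR3, a receptor for FGF9, read 5.61 and 5.47 (-0.14) and lay above the filter only on the empty vector array. The spans that held 95% of the 500 genes of like level were -0.43 to 0.40 for FGFR1, -0.42 to 0.53 for FGFR2 and -0.51 to 0.54 for FGFR3. The stretch of mRNA that each receptor's probe set covers is unknown here, so the IIIb and IIIc splice forms were not told apart. Of the regulators listed for that splicing choice 4 were measured, and the epithelial factor ESRP1 was not. All 4 read slightly lower (3 of them when the arrays were centred on their medians), beside the same 39.5% of all genes. PTBP1 read 10.3 with TFAP2E against 10.5 (-0.20), PTBP2 differed by -0.15, RBFOX2 by -0.08 and ESRP2, an epithelial splicing factor, by -0.02.

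Across the 8 FGF genes above the filter, 5 read lower and 3 higher with TFAP2E under each scaling tried, with a median difference of -0.13. This tally holds FGF9, which was chosen for its lower reading, and FGFR3, which passed the filter only through the array on which it read higher. Without them 3 were lower and 3 higher (median -0.03). Among all 11548 genes 39.5% were lower, with a median of 0.04, and nothing about the FGF genes is read from the comparison. The ligands split between lower (FGF9 and FGF19) and near 0 (FGF18 and FGF20), and the receptors between lower (FGFR1, FGFR2 and FGFR3) and higher (FGFR4). In the deposited values no other member reached 1.5-fold, a size that 0.606% of all genes reached in the lower and 0.892% in the higher direction. FGF19 passed 1.5-fold under quantile normalization and with the loess trend removed.

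**Figure D2:**
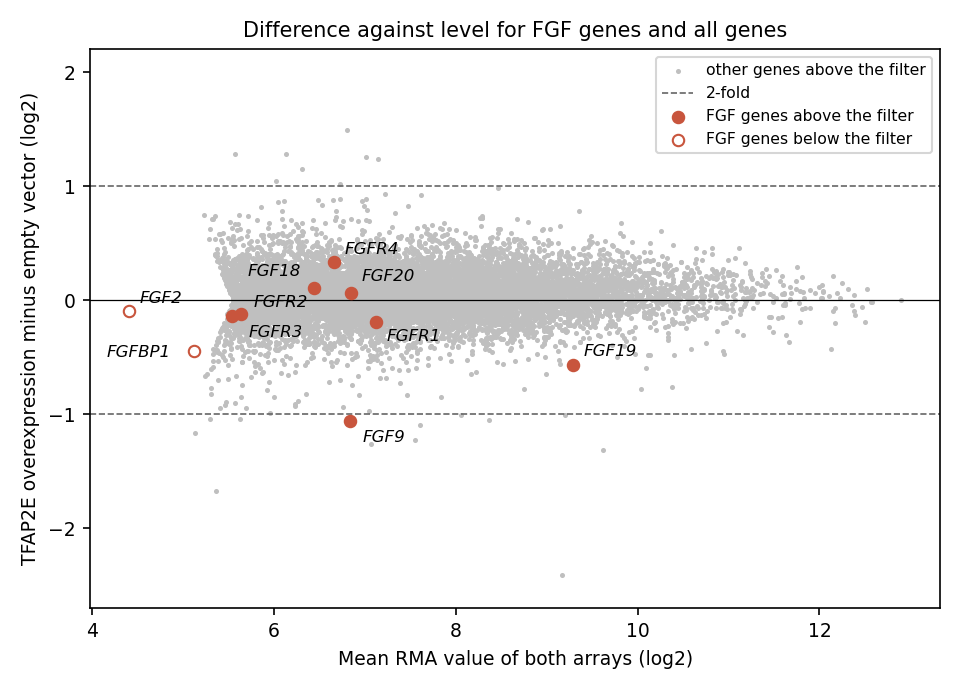
Difference between the arrays (log2, TFAP2E minus empty vector, vertical axis) against the mean RMA value of both arrays (log2, horizontal axis), with grey points for genes above the filter, filled red points for the 8 FGF genes above it, open points for the 2 below it, and dashed lines at 2-fold; 2 genes lie outside the plotted range. FGF9 lies past the lower line at -1.06, FGF19 lies at the lower edge of the genes of its level at -0.57, and the other 6 filled points lie within the grey band.

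The genes next to FGF9 on chromosome 13 lay nearer 0 than FGF9 itself. The 5 genes above the filter on each side, taken in RefSeq order, had a median difference of 0.00, with 5 lower and 5 higher. The lowest was TNFRSF19, a TNF receptor family member directly next to FGF9 in this order, at -0.41, and the highest was MICU2, a regulator of mitochondrial calcium uptake on the other side, at 0.24. FGF19 lies on chromosome 11 in a cluster with FGF3, FGF4 and the cyclin gene CCND1. Of its 10 neighbours 6 read lower and 3 higher (median -0.04), from -0.23 for CCND1 to 0.11. FGF3 differed by -0.22 and FGF4 by 0.09. Neighbours of FGFR4 on chromosome 5 had a median of -0.05, from -0.32 to 0.21, and those of FGFBP1 on chromosome 4 a median of 0.13, from -0.16 to 0.36. These 4 FGF genes are shown because their differences were the furthest from 0, so that lying outside the range of their neighbours says little, and FGFBP1 is dim on both arrays whereas its neighbours all passed the filter.

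**Figure D3:**
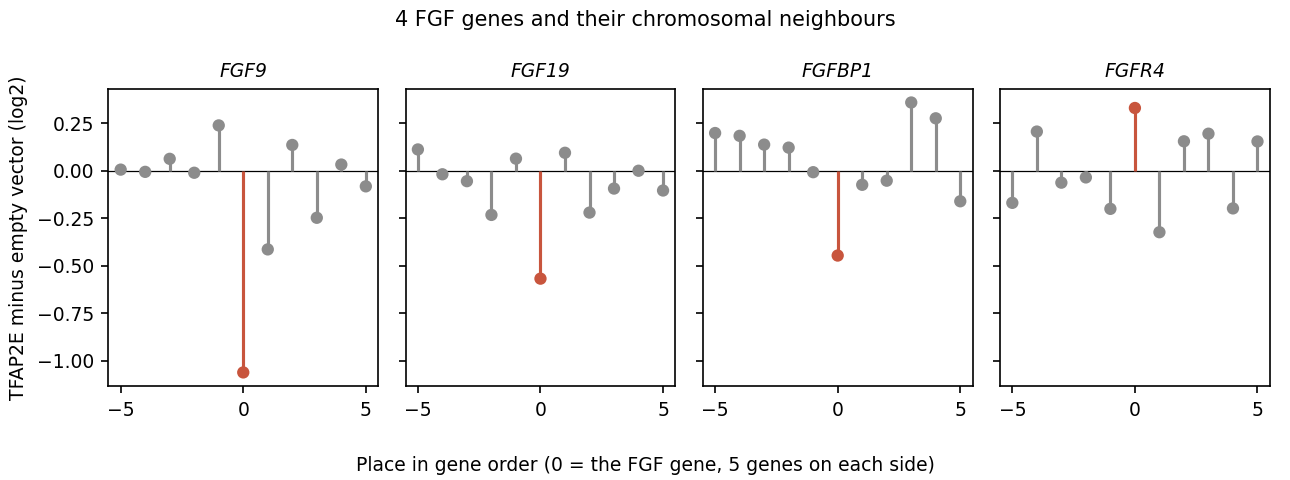
Difference between the arrays (log2, TFAP2E minus empty vector, vertical axis) for FGF9, FGF19, FGFBP1 and FGFR4 (red, at place 0; FGFBP1 lies below the filter) and the 5 genes above the filter on each side in chromosomal order (grey); places are gene ranks, not distances. FGF9 reaches -1.06 while its neighbours lie between -0.41 and 0.24, and FGFR4 stands at 0.33 among neighbours between -0.32 and 0.21.

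Sequences before the gene start were in hand for 6 of the 10 genes, FGF2, FGF18, FGFR2, FGFR3, FGFR4 and FGFBP1, at 11 annotated starts (RefSeq, GRCh38.p14). The 250 bases before each start were searched on both strands for GCCNNNGGC, the palindromic AP-2 consensus, and for CTTTGA, the core of the TCF/LEF consensus through which beta-catenin acts. Of all 35116 promoters of this length 19.8% held the first and 11.2% the second. AP-2 letters were found for FGF18 and at 1 of the 2 starts of FGFR4, and TCF/LEF letters for FGF18 alone, and the matches do not overlap. These stretches are shown because they are the ones with matches, and capitals mark the matched letters. They lie on chromosome 5, plus strand, at chr5:171419397-171419646 for FGF18 and at chr5:177089300-177089549 for FGFR4.
FGF18: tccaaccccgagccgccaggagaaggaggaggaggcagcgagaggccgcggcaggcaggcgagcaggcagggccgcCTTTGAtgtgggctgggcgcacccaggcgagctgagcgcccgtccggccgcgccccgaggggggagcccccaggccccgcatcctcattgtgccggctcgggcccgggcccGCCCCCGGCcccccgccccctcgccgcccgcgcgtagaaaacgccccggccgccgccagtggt
FGFR4: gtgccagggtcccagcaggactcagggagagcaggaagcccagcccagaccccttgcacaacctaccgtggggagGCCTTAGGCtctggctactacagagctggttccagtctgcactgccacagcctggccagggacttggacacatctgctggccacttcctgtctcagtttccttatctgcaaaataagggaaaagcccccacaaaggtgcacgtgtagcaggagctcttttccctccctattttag
In FGF18, whose stretch is 78.8% G and C, the AP-2 letters GCCCCCGGC begin 63 bases and the TCF/LEF letters 174 bases before the start. In FGFR4, at 57.2% G and C, the letters GCCTTAGGC begin 175 bases before the start. The genes with these letters differed by 0.10 (FGF18) and 0.33 (FGFR4). Such a match is a string of letters and not a measured binding site.

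The other secreted ligands were mostly dim. Of 13 on the array 5 passed the filter, with 3 higher, 2 lower and a median difference of 0.09, or -0.06 with the dim ligands included. FGF8 was highest, at 5.39 with the empty vector and 5.72 with TFAP2E (0.33), but it passed the filter only through the TFAP2E array, and without it 2 were higher and 2 lower, with a median of 0.03. FGF22 differed by 0.17, while FGF3 (-0.22) and FGF17 (-0.04) were lowest. FGF1, FGF5, FGF6, FGF7, FGF10, FGF16, FGF21 and FGF23 lay below the filter. Of the 4 intracellular FGF homologous factors, which bind sodium channels and are not secreted, only FGF13 passed, at 6.90 and 7.10 (0.20). FGFRL1, a receptor-like protein without a kinase domain, differed by -0.17, and the carrier FGFBP3, which read 5.60 with TFAP2E and 5.39 with the empty vector and passed only through the TFAP2E array, by 0.20. KL, FGFBP2 and KLB lay below the filter.

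Heparan sulfate genes, which supply the cofactor of FGF binding, lay near 0. Among all genes above the filter 39.5% read lower. Of the 7 proteoglycan cores above the filter 5 were lower and 2 higher (4 and 3 with centring; median -0.04), from the glypican GPC4 at -0.30 and agrin (AGRN) at -0.22 to the syndecan SDC3 at 0.06 and GPC2 at 0.16. GPC2 passed the filter only through the TFAP2E array (5.61 against 5.45), and without it 5 were lower and 1 higher (median -0.11). Of 10 enzymes that build or edit the chains 5 were lower and 4 higher (median -0.02, which centring turned to 0.01). The chain polymerase subunit EXT2 (-0.14) and the sulfotransferase HS3ST1 (-0.13) were lowest, and the sulfotransferases HS6ST1 (0.08) and NDST1 (0.22) highest. None of the genes above the filter in either group reached 1.5-fold.

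The relay from receptor to MAP kinase was measured by 15 genes, all above the filter, with 8 higher, 7 lower and a median of 0.04, which quantile normalization turned to -0.02 and removal of the loess trend to -0.01. The docking protein GAB1 was lowest (5.91 against 6.23, -0.32), with a second probe set at -0.40, and the exchange factor SOS2 followed at -0.14. The kinase MAP2K1 (8.86 against 8.57, 0.29) and the adaptor GRB2 (0.19) were highest. None reached 1.5-fold.

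Of the 18 feedback inhibitors and transcriptional outputs above the filter 11 were higher and 7 lower, with a median of 0.05 beside 0.04 for all genes; quantile normalization and removal of the loess trend each gave 9 and 9. SPRY4, a Sprouty inhibitor, was lowest, at 8.24 with TFAP2E against 8.80 with the empty vector (-0.56, 1.48-fold), and ETV4 followed at -0.19. FOS, an immediate early transcription factor, was highest, at 8.92 against 8.53 (0.39), then SPRED3 (0.21). The remaining outputs named here were picked after their values were seen. DUSP6, the ERK phosphatase often read as a gauge of FGF signalling, was at 11.0 on the TFAP2E array and 10.9 on the control (0.09), ETV5 differed by 0.13, SPRY2 by -0.11 and SPRY1 by -0.05. Both of these Sprouty genes lay nearer 0 than SPRY4.

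**Figure D4:**
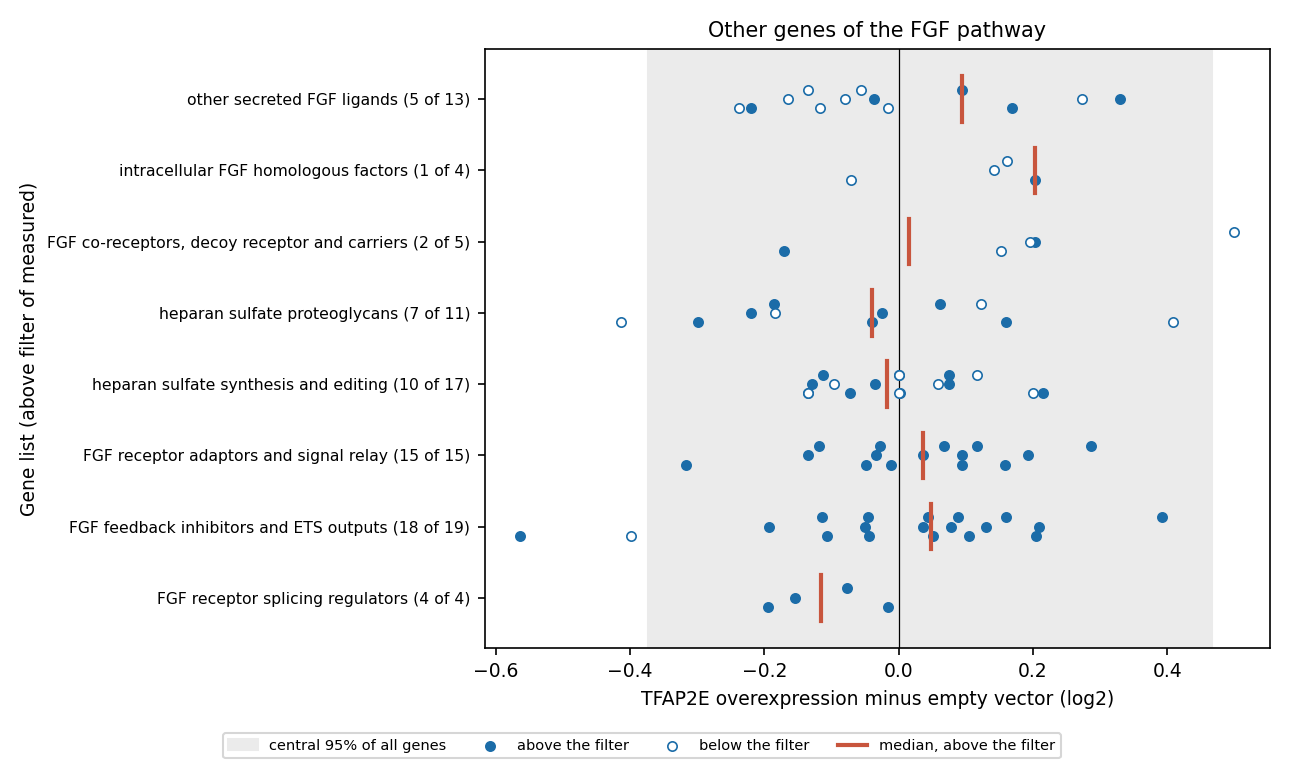
Difference between the arrays (log2, TFAP2E minus empty vector, horizontal axis) for the other FGF pathway genes in 8 lists, with filled points above the filter, open points below it, a red bar at the median of the filled points and grey shading for the span of -0.37 to 0.47 that held 95% of all genes. All medians lie inside the shading, and SPRY4 at -0.56 is the only filled point outside it.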

How the data were processed

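The authors deposited log2 expression values per probe set, made with RMA per the submitters' processing notes; version, software and build: not given in the sources used here. RMA sets arrays to 1 distribution, so a change of all transcripts in 1 direction would not show. Of 33297 probe sets 19460 carried exactly 1 symbol, 1754 several and 12083 none. Symbols were updated by Entrez identifier in RefSeq (GRCh38.p14), which held 19429 of the 19460. Of a gene's probe sets, the one with the highest mean was used. Python 3.11.15, numpy 2.4.6, pandas 2.3.3 and statsmodels 0.14.6 computed differences, counts and medians. The filter was the 50th percentile of all values. The members, lists and neighbours were chosen with earlier results of these data known. From each pathway list the 2 highest and 2 lowest genes above the filter are named, any past 1.5-fold, and all in lists with fewer than 5. Alternatives covered filter, scaling, floor, probe set choice and threshold. The scripts were checked on simulated data, with planted differences larger than that of FGF9, in genes further above the filter than FGF9. That check does not cover differences as small as those of the FGF genes.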

Additional observations from a re-analysis of the deposited data

How the results depend on the processing

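FGF9 differed by -1.09 to -1.04 under the 6 alternatives that could give it a value. At the 75th percentile filter FGF9 was left out, and 0 FGF genes and 13 of all genes passed 2-fold, against 1 and 23. At 3-fold these were 0 and 4, at 1.5-fold 1 and 173. These changes follow from how the settings are built. All 51 values of single FGF genes stayed within 0.219 (1 SD over all genes) of the reported ones, and 0 changed sign. Changing the filter, averaging probe sets (each of these genes has 1) or setting the floor returned the reported value by construction wherever a gene was kept. Only the scalings could move a value, and for FGF2 and FGFBP1 no scaling was among the alternatives. Quantile normalization (-0.61) and removal of the loess trend (-0.62) took FGF19 past 1.5-fold. The median of the other secreted ligands became -0.22 at the 75th percentile filter, where FGF3 alone was left; the other 54 of 55 list values moved by less than 0.219, and 8 of the 55 changed sign. A filter that asks for both arrays was chosen after seeing the data; it left FGF9 as the 1 FGF gene past 2-fold. Centring moved the median difference over all genes to 0.07, quantile normalization to 0.02 and removal of the loess trend to 0.01. Dim genes such as FGF2, FGFBP1 and KLB have no dependable difference. With 1 array per group, the differences of genes above the filter have no error or test either. No paired analysis was possible because the labels give 1 sample per condition.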
